A study of Danio rerio with 5 samples.

Results

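The villin, scinderin and gelsolin family was followed in the upper digestive tract of adult zebrafish, comparing 3 zCdx1b transgenic pools with 2 wild-type pools. Members were all probe sets whose single gene symbol in the platform annotation was vil1 or vill or began with scin or gsn, which gave 6 of the 15502 probe sets, for 5 of 8793 named genes: vil1, vill, scinla, scinlb and gsnb. The family was chosen by its measured log2 differences between transgenic and wild-type pools, so these are described below without a test. Both groups had the AB background and an age of 3 months, and 3 fish went into every pool, which was hybridised to 1 array. The transgenic fish descended from AB* eggs injected with Tol2 transposase RNA and a mini Tol2 plasmid labelled zK5p-zCdx1b-EGFP, and the controls are labelled wild-type. Not given in the sources used here, for either group, are the number of founders, the sex and where the dissection began and ended. The labels call the pools biological replicates, and the p-values measure the spread between 5 pools only.

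Villins, scinderins and gelsolins are built from repeats of one domain, the gelsolin domain, which binds actin and in most members responds to calcium. Gelsolin and scinderin cut actin filaments and cap the cut ends. Villin can also cut and cap, and through an added headpiece it bundles filaments, for which it is known as a core protein of the microvilli on absorptive intestinal cells. Cdx1b belongs to the caudal homeobox factors, which are known for their part in forming intestinal epithelium. Keratin 5, which the name zK5p appears to refer to, is a keratin of stratified epithelia.

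The labelled tissue held several cell types, and markers of most of them differed between the groups. On the wild-type arrays 21 of 39 intestinal absorptive markers were no higher than the background bound in either pool, while 0 of 39 were so in all transgenic pools. The bound is the highest of 44 bacterial and tag control probe sets on an array and lay between 3.64 and 4.13 on the log2 scale. None of the 39 squamous epithelium markers lay at or below it in all pools of either group. All values below are log2 expression, and levels were not compared between genes. In bulk tissue, fewer cells of a type and less RNA per cell cannot be told apart.

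The villin gene vil1 was the single member higher in transgenic pools. Its level was 9.54, 9.38 and 8.89 in transgenic pools 1, 2 and 3, against 3.77 and 3.81 in wild-type pools 1 and 2. All transgenic pools lay above both wild-type pools, with a gap of 5.08 between the nearest pools. The difference was 5.48 (SE 0.29), from 9.27 ± 0.34 (SD, n = 3) in transgenic and 3.79 ± 0.03 (SD, n = 2) in wild-type pools, a 44.6-fold difference and the rise ranked 92 by size among 10335 probe sets. One of the wild-type values, that of pool 2, lay at or below the background bound of its array. With that value set to the bound, the difference was 5.32.

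The villin-like gene vill, whose product is related to villin, had the opposite direction. It stood at 3.29, 4.29 and 4.05 in transgenic pools 1, 2 and 3, against 6.35 and 6.05 in wild-type pools 1 and 2. Both wild-type pools were higher than every transgenic pool, by at least 1.75, and transgenic pool 1 was at or below its background bound. The difference was -2.32 (SE 0.33), from 3.88 ± 0.52 (SD, n = 3) in transgenic and 6.20 ± 0.21 (SD, n = 2) in wild-type pools, or 4.99-fold lower in transgenic pools. With transgenic pool 1 at its bound it was -2.10.

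Both scinderin-like genes were lower in transgenic pools, by unequal amounts. The gene scinla, which earlier carried the symbols gsn and gsnl1 and encodes the gelsolin-like protein abundant in the zebrafish cornea, read 3.96, 5.72 and 5.99 in transgenic pools 1, 2 and 3, against 8.72 and 8.45 in wild-type pools 1 and 2. The groups were 2.46 apart at their nearest pools, although the transgenic pools differed among themselves by 2.03. The value of 3.96 in transgenic pool 1 lay just above that array's bound of 3.95 and below the filter on low values. The difference was -3.37 (SE 0.62), from 5.22 ± 1.1 (SD, n = 3) in transgenic and 8.59 ± 0.19 (SD, n = 2) in wild-type pools, which is 10.3-fold and the fall ranked 24 by size among the 10335 probe sets. Its paralog scinlb read 6.0, 6.56 and 6.74 in transgenic pools 1, 2 and 3, against 7.80 and 7.77 in wild-type pools 1 and 2. These groups did not overlap either, and the difference of -1.36 (SE 0.30) was 2.56-fold, from 6.43 ± 0.38 (SD, n = 3) in transgenic and 7.79 ± 0.02 (SD, n = 2) in wild-type pools.

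The gelsolin gene gsnb was measured by 2 probe sets, called A and B here, which gave the same direction and different sizes. Probe set A of gsnb read 4.28, 5.73 and 6.02 in transgenic pools 1, 2 and 3, against 8.93 and 8.29 in wild-type pools 1 and 2. Probe set B of gsnb read 3.73, 4.02 and 4.14 in transgenic pools 1, 2 and 3, against 5.49 and 5.46 in wild-type pools 1 and 2. On both, every transgenic pool was below both wild-type pools. The difference on A was -3.27 (SE 0.56), or 9.61-fold, the fall ranked 33 by size. The difference on B was -1.51 (SE 0.19), or 2.85-fold, and -1.44 with the transgenic pool that lay at or below its background bound set to that bound. Which parts of the transcript the probe sets cover, and whether either also binds transcripts of a paralog, was not tested. No probe set was listed for scin or gsna, the other scinderin and gelsolin genes of the RefSeq table, so these were not analysed here.

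**Figure D1:**
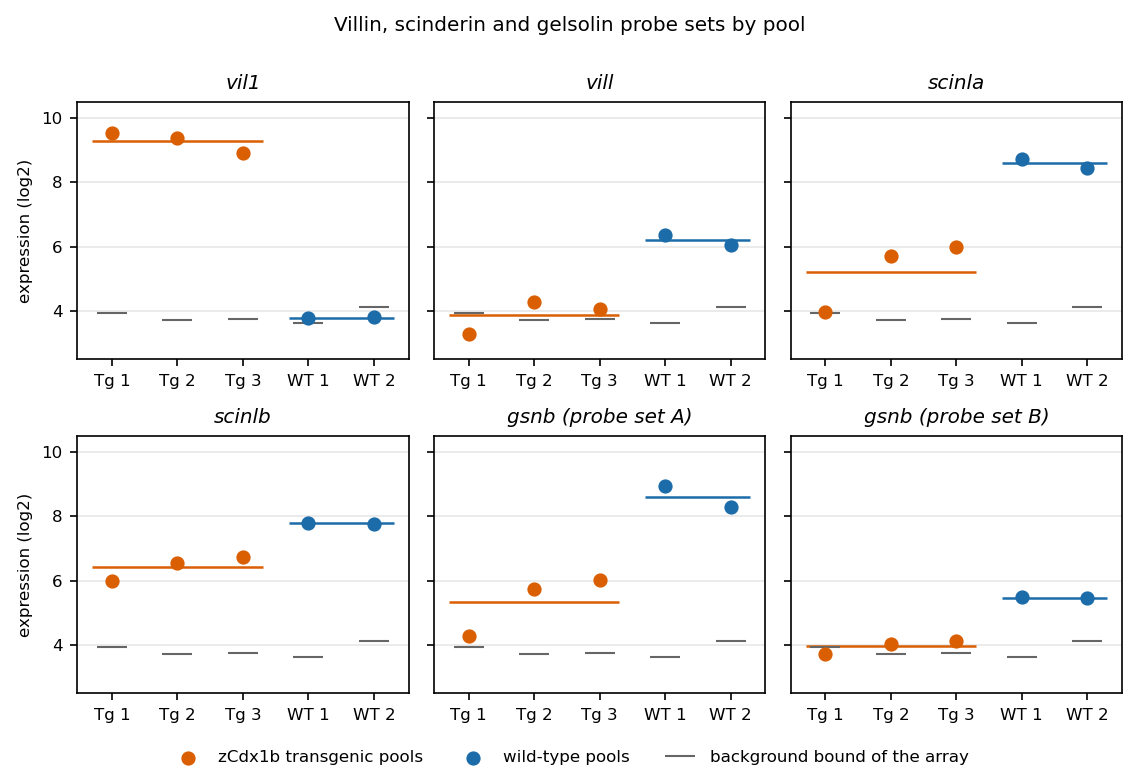
Log2 expression of the 6 probe sets in each pool, with transgenic pools (Tg, orange) left of wild-type pools (WT, blue); horizontal lines are group means and grey dashes the background bound of each array. The groups do not overlap on any of the 6 probe sets, with vil1 higher and the other members lower in the transgenic pools.

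All 6 probe sets passed the filter on low values, vil1 through the transgenic arrays alone, since its wild-type values were below the cut-off on both arrays. Past the limma threshold of adjusted p = 0.05, 1 probe set was higher and 5 were lower in transgenic pools, where 10.1% and 11.7% of all 10335 probe sets were called in those directions and 21.8% in either. The groups did not overlap for 6 of 6 members and for 50.9% of all probe sets, 20.1% higher and 30.8% lower in transgenic pools. Because the same contrast led to the choice of the family, nothing is read from these shares. The same holds for the members' calls when pools are left out or the processing is changed. The number of lower calls was 2 without wild-type pool 1, where vill and probe set B of gsnb stayed past the threshold, and 3 without wild-type pool 2, where probe set A of gsnb did so too. With a wild-type pool left out, the lone pool is assumed to vary like the transgenic pools. The sizes moved less: over the pools left out in turn, the difference of scinla ran from -3.75 to -2.73, its smallest size being without transgenic pool 1, and that of vil1 from 5.35 to 5.67.

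The members also varied among the transgenic pools. On all 5 lower probe sets transgenic pool 1 was the lowest of the transgenic pools, and on vil1 it was the highest. Pool 1 minus the mean of pools 2 and 3 was -1.90 for scinla, -1.59 for probe set A of gsnb, -0.88 for vill, -0.65 for scinlb, -0.35 for probe set B of gsnb and 0.40 for vil1. Among all probe sets called lower, 70.2% had pool 1 lowest, with a median offset of pool 1 of -0.21, against 34.6% and 0.07 over all 10335. Among those called higher, 1.73% had pool 1 lowest, and the median offset was 0.40, the value seen on vil1. The range of scinla over the transgenic pools was wider than that of 96.5% of all probe sets, and that of probe set A of gsnb wider than that of 95.8%.

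**Figure D2:**
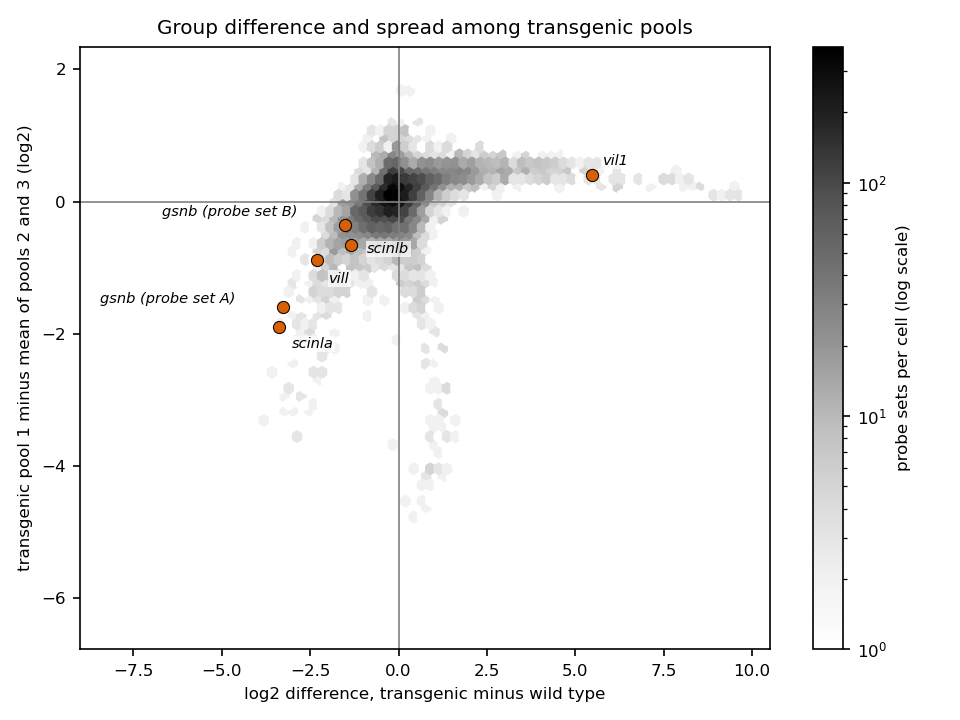
Each probe set's log2 difference between transgenic and wild-type pools (horizontal) against transgenic pool 1 minus the mean of transgenic pools 2 and 3 (vertical), with all 10335 probe sets as grey density and the 6 family probe sets in orange. The 5 lower members lie between -0.35 for probe set B of gsnb and -1.90 for scinla on the vertical axis, and vil1 lies at 0.40; pool 1 enters both axes.

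The pool values of vil1, scinla and vill were set beside those of cell type markers. Against the wild-type mean, vil1 stood at 5.75, 5.59 and 5.1 in transgenic pools 1, 2 and 3, the median of 37 intestinal absorptive genes at 5.27, 4.90 and 4.51, and that of 35 hepatocyte genes at 5.17, 4.8 and 4.4. Of the 37 absorptive genes, 33 rose, 0 fell and 4 did not pass limma's test with Benjamini-Hochberg adjustment over all probe sets, where 11.2% of all 6479 genes rose and 11.3% fell. In both wild-type pools 21 of the 39 absorptive markers on the array lay no higher than the bound, which was under the filter cut-off. Those tested among them passed the filter through the transgenic arrays alone, so for them a fall could hardly be called. The sizes of the absorptive and hepatocyte medians, and of the vil1 difference, also depend on the background signal. The gene scinla stood at -4.63, -2.87 and -2.60 in transgenic pools 1, 2 and 3, and vill at -2.90, -1.90 and -2.15. The median of 38 squamous epithelium genes was -2.91, -1.98 and -1.68, so vill had another order over pools 2 and 3. In that list 2 genes rose, 32 fell and the rest missed the threshold. The summed linear level of the squamous markers was 11500 to 21900 in transgenic and 64200 to 65700 in wild-type pools, and that of the absorptive markers 68500 to 82500 in transgenic and 1440 to 1980 in wild-type pools.

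The defining squamous marker krt5, a keratin gene, read 7.05, 9.51 and 9.91 in transgenic pools 1, 2 and 3, against 11.68 and 12.01 in wild-type pools 1 and 2. As for scinla, pool 1 was the lowest. The krt5 difference was -3.02 (SE 0.82, limma adjusted p = 0.0478). Its call was lost without the filter, with eBayes given no trend or a robust one, and without transgenic pool 2. The limma adjusted p was then from 0.0502 to 0.0856. Leaving out either control pool also ended the krt5 call. Its difference was -3.18 when wild-type pool 1 was omitted and -2.85 when pool 2 was. The basal cell factor tp63 differed by -2.99 (SE 0.33, limma adjusted p = 0.00258). Over all genes 11.2% rose and 11.3% fell, the shares to set beside the counts that follow. Beside vil1, 20 of 21 exocrine pancreas and 30 of 35 hepatocyte genes rose. So did 6 of 10 enteroendocrine and islet and 4 of 7 smooth muscle genes. In these lists 0 fell, and the medians were 7.24, 4.79, 2.22 and 1.35, in that order. In both wild-type pools 13 of 22 pancreas and 25 of 37 hepatocyte markers on the array lay no higher than the bound. The same held for 7 of 14 enteroendocrine and islet and 1 of 7 smooth muscle markers, so these medians depend on the bound. Those tested among them passed the filter through the transgenic arrays alone. For them a fall could hardly be called, so the counts depend on this too. Beside the lower members, 14 of 40 striated muscle and 9 of 16 mesenchyme and matrix genes fell and 0 rose, with medians of -2.30 and -1.93. In transgenic pools 1, 2 and 3 the striated muscle median stood at -3.75, -1.81 and -1.14 and the mesenchyme and matrix median at -2.62, -1.62 and -1.15, so pool 1 was the lowest here too. Of 8 goblet and mucus genes 1 rose and 3 fell, and of 20 leukocyte genes 1 rose and 5 fell, with medians of -1.31 and -0.79. Among other defining markers, the pancreas marker prss1 and the hepatocyte marker fabp10a were at least 648-fold and 189-fold higher. Both passed the filter on low values through the transgenic arrays alone. The absorptive marker fabp2 rose by 5.96 (SE 0.41, limma adjusted p = 0.000407). The muscle marker ckma had -2.44 and the leukocyte marker ptprc -0.76, without passing (limma adjusted p = 0.101 and 0.133). The gene ckma did pass without transgenic pool 1 (difference -1.5), without transgenic pool 3 (-3.06) and with the replicate block. For ptprc this was so after quantile normalization (-0.88) and without wild-type pool 2 (-1.13). The part of these cell types, and of where the dissection began and ended, in the members' differences was not tested.

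**Figure D3:**
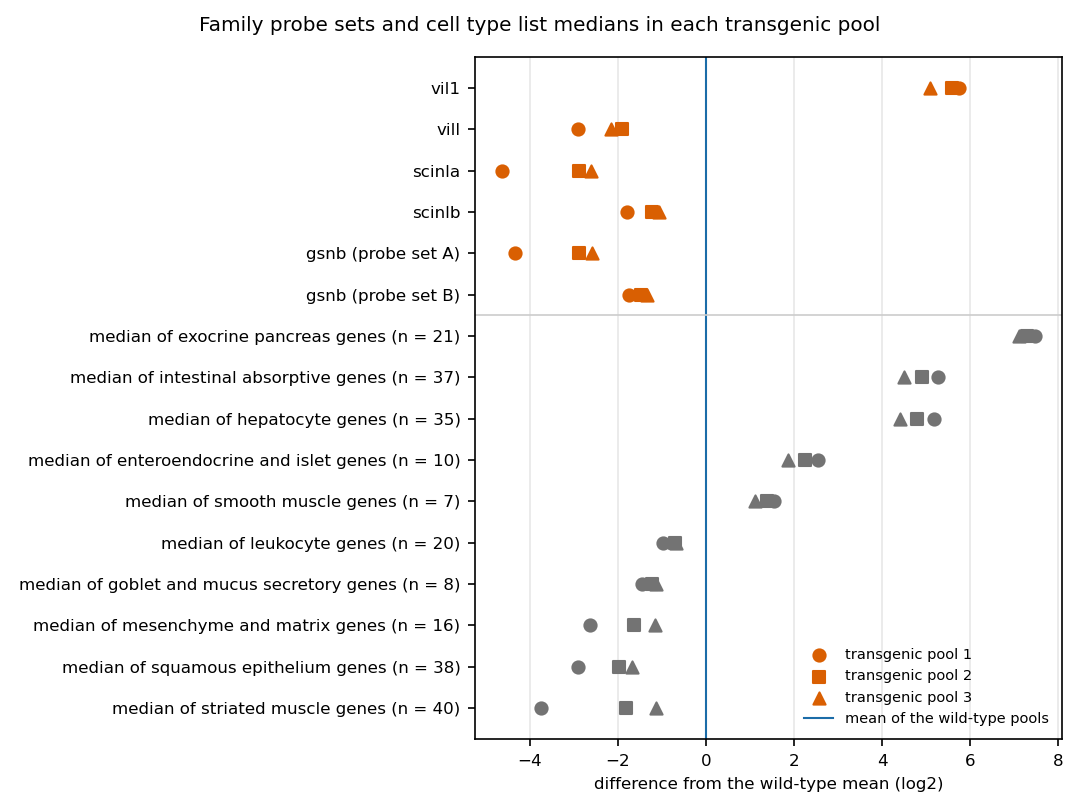
Difference of each transgenic pool from the wild-type mean (log2) for the 6 family probe sets (orange) and for the median of each cell type list (grey), with circles, squares and triangles for transgenic pools 1, 2 and 3 and the wild-type mean at 0. vil1 lies near the intestinal absorptive and hepatocyte medians, and scinla and probe set A of gsnb lie below the squamous median in all 3 pools. For vil1 and many absorptive and hepatocyte markers the wild-type values lay near or below the bound, so these sizes depend on it.

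Profiles were compared over the 5 arrays by the root mean square distance, on the log2 scale, between values centred on each probe set's own mean, against 8167 other named genes. These distances describe the arrays and use the same contrast. The nearest genes to vil1 were pla2g12b, a phospholipase-related gene of lipoprotein assembly, at 0.06, then mep1a.1, which encodes a brush border metalloprotease, and pls1, the plastin that bundles microvillar actin beside villin, both at 0.11. In all, 20 of the 8167 genes lay within 0.25 of vil1. The gene pla2g12b read 8.90, 8.80 and 8.33 in transgenic pools 1, 2 and 3, against 3.24 and 3.37 in wild-type pools 1 and 2, with both wild-type values at or below the bound.

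The profiles of scinla and probe set A of gsnb were close to one another. Their distance was 0.17. For probe set A of gsnb, 0 of the 8167 other genes lay closer than scinla, and for scinla 1 lay closer than probe set A of gsnb, gpa33a, at 0.14. The next genes to scinla were col17a1b, the collagen that anchors basal epithelial cells, at 0.18, and gja1b, a gap junction connexin, at 0.20. Those nearest to probe set A of gsnb were the annexin gene anxa1d and gpa33a, both at 0.18, and the S100 gene s100v2 at 0.20. In transgenic pool 1, gpa33a, col17a1b, gja1b and anxa1d lay at or below the background bound.

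Probe set B of gsnb was farther from probe set A, at 0.99, than from scinlb, at 0.13. The values of B in transgenic pools 1, 2 and 3, at 3.73, 4.02 and 4.14, lay near the bounds of 3.95, 3.72 and 3.74. The part of this in its distances was not tested. For scinlb 24 of the 8167 genes lay closer than probe set B of gsnb. Nearest to scinlb was mmp11b, a metalloproteinase gene at or below the bound in transgenic pool 1, at 0.06. The mitochondrial channel gene vdac1 and the antigen presentation gene cd74b followed, both at 0.08. Those nearest to probe set B of gsnb were cast, which encodes the calpain inhibitor calpastatin, and evplb, a gene of the epithelial cornified layer protein envoplakin, both at 0.06, and cyp26b1, of retinoic acid breakdown, at 0.07. The genes nearest to vill were klc1b, a kinesin light chain gene, at 0.14, and the intermediate filament gene vim and the homeobox gene meis1b, both at 0.17. Within 0.25 lay 23 genes for vill, 6 for scinla, 7 for probe set A of gsnb, 179 for scinlb and 201 for probe set B of gsnb, so the order of the nearest genes is loosest for the last 2.

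Other genes that share the gelsolin domain were measured outside the family. The filament capping gene capgb read 5.15, 6.37 and 6.83 in transgenic pools 1, 2 and 3, against 9.01 and 8.12 in wild-type pools 1 and 2, so the groups did not overlap and pool 1 was again the lowest. It fell by 2.44 on the log2 scale (SE 0.56, limma adjusted p = 0.0281), and the call was lost with transgenic pool 2, wild-type pool 1 or wild-type pool 2 left out, at adjusted p = 0.0579, 0.132 and 0.0589. The flightless gene flii, a coactivator with gelsolin repeats, had -0.50 (SE 0.24, limma adjusted p = 0.206). Of 2 probe sets for the supervillin gene svila, a membrane-linked relative, the one with the higher mean had 0.03 (SE 0.25, limma adjusted p = 0.96) and the other -0.70 (SE 0.16, limma adjusted p = 0.0287). The call on the second was lost with each transgenic pool and with wild-type pool 1 left out, at adjusted p of up to 0.165. A related gene that was not on the list, svild, named after its value was seen, had -0.29 (SE 0.18) and did not pass the filter on low values. By gene, 0 of the 3 listed relatives rose and 1 fell, where 11.2% and 11.3% of all 6479 genes did so.

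Genes on the brush border structure list were called in both directions. The list also held related genes, such as class I myosin and eps8-like genes, and not brush border genes alone. Of 13 measured, 4 rose, 2 fell and 7 missed the limma threshold. The shares were 30.8% higher and 15.4% lower, where 11.2% of all genes rose and 11.3% fell. The share of falls was thus near that of all genes. Of the 15 list genes on the array, 4 lay no higher than the bound in both wild-type pools. For those tested among them a fall could hardly be called. The median was 0.53 against -0.08 over all genes. The plastin gene pls1 read 9.09, 8.84 and 8.52 in transgenic pools 1, 2 and 3, against 3.15 and 3.51 in wild-type pools 1 and 2, at least 30.5-fold higher (limma adjusted p = 0.000144), since neither wild-type value exceeded the bound. The gene tmigd1, for a membrane protein with immunoglobulin domains, was at least 27.9-fold higher (limma adjusted p = 0.000351). Like vil1, both pls1 and tmigd1 passed the filter on low values through the transgenic arrays alone. The scaffold gene nherf1a, whose product ties membrane proteins to ezrin, rose by 4.15 (SE 0.32, limma adjusted p = 0.000692). The membrane curvature gene baiap2l1a rose by 0.84 (SE 0.22, limma adjusted p = 0.0414), a call lost with each transgenic pool and with wild-type pool 2 left out, at adjusted p from 0.0621 to 0.217, and without the filter or with the replicate block.

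The 2 genes of the brush border structure list that fell were eps8l1a and myo1ea. The first, a relative of the microvillar tip protein gene eps8, had -1.98 (SE 0.27, limma adjusted p = 0.00558). The second, a class I myosin gene, had -1.39 (SE 0.20, limma adjusted p = 0.00672). The number that fell was 6 without wild-type pool 2. The levels of eps8l1a were 4.07, 4.81 and 4.66 in transgenic pools 1, 2 and 3, against 6.46 and 6.52 in wild-type pools 1 and 2. Of the 13 genes, 1 is also on the leukocyte list. The myosin gene myo1a, which was listed as well, was not found on the array.

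Of 10 measured genes for brush border enzymes and transporters, 9 rose and 1 fell, where 11.2% of all genes rose and 11.3% fell. The median was 4.73, and 4 of the 10 are also on the intestinal absorptive list. The protease gene mep1a.1 rose by 5.66 (SE 0.29, limma adjusted p = 0.000137), the peptide transporter gene slc15a1b was at least 36.8-fold higher (limma adjusted p = 0.000111), and the amino acid and bile acid transporter genes slc6a19b and slc10a2 both rose by 4.82 (limma adjusted p = 0.00124 and 0.000839). For slc6a19b the difference was 4.16 with wild-type pool 1 left out; omitting wild-type pool 2 gave 5.48. The 2 intestinal alkaline phosphatase genes had opposite directions. The levels of alpi.1 were 3.75, 3.89 and 3.91 in transgenic pools 1, 2 and 3, against 5.11 and 5.43 in wild-type pools 1 and 2 (difference -1.41, SE 0.18, limma adjusted p = 0.00409). The gene alpi.2, named after its value was seen, was at least 7.78-fold higher (limma adjusted p = 0.00202). Both slc15a1b and alpi.2 passed the filter on low values through the transgenic arrays alone, and alpi.1 through the wild-type arrays alone. For alpi.1 a rise could hardly be called, and with transgenic pool 1 at its bound its difference was -1.35. In all, 3 of the 10 genes lay no higher than the bound in both wild-type pools, and for these a fall could hardly be called. With either wild-type pool left out, the count of this list that fell was 0, as the alpi.1 probe set was then below the filter on low values.

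**Figure D4:**
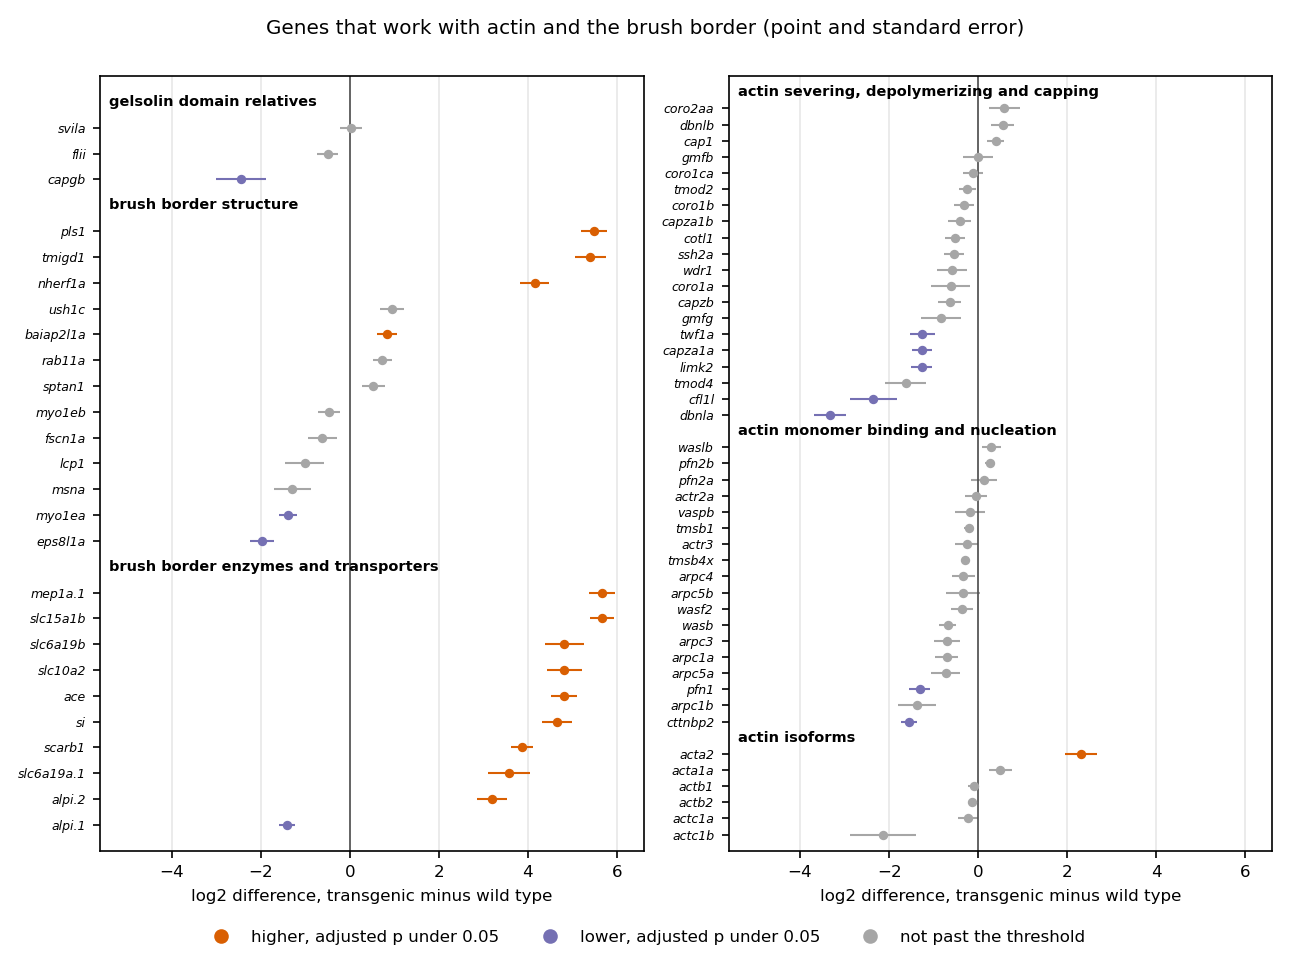
Log2 difference, transgenic minus wild type, with its standard error, for every measured gene of the 6 lists of gelsolin-domain, brush border and actin genes; orange and violet points passed limma's adjusted p threshold of 0.05 and grey points did not. All brush border enzymes and transporters except alpi.1, at -1.41, lie right of 0, some against wild-type values at or below the bound. The lowest point is dbnla at -3.32, with transgenic pool 1 at or below the bound.

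The list of genes that cut, depolymerize or cap actin filaments also held related genes, such as a cofilin kinase gene and a drebrin-like gene. Of its 20 measured genes, 0 rose, 5 fell and 15 missed the threshold, where 11.2% of all genes rose and 11.3% fell. The median of the list was -0.56, and 1 of the 20 is also on the leukocyte list. The drebrin-like gene dbnla read 2.88, 3.89 and 3.92 in transgenic pools 1, 2 and 3, against 7.05 and 6.72 in wild-type pools 1 and 2, and fell by 3.32 (SE 0.36, limma adjusted p = 0.00235). With transgenic pool 1 at its bound, the dbnla difference was -2.97. It passed the filter on low values through the wild-type arrays alone, so a rise could hardly be called. With a wild-type pool left out, dbnla was below the filter on low values and had no call. Its paralog dbnlb, named after its value was seen, had 0.55 without passing (limma adjusted p = 0.195). The cofilin-like gene cfl1l, of the family that severs ageing filaments, read 8.09, 9.57 and 9.89 in transgenic pools 1, 2 and 3, against 11.60 and 11.47 in wild-type pools 1 and 2. It fell by 2.35 (SE 0.52, limma adjusted p = 0.0252), and the call was lost with either wild-type pool (1 or 2) left out, at adjusted p = 0.122 and 0.0962.

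The cofilin kinase gene limk2 and the capping protein gene capza1a fell by 1.27 and 1.26 (SE 0.23 each, limma adjusted p = 0.0138 and 0.0137), calls lost without transgenic pool 2, at adjusted p = 0.104 and 0.0908. The replicate block ended both as well, at adjusted p = 0.0864 and 0.106. The number of this list that fell was 2 with transgenic pool 2 or wild-type pool 1 left out. It was 8 with wild-type pool 2 left out, and also after quantile normalization. The list for actin monomer binding and filament nucleation also held a cortactin-binding gene. Of its 18 measured genes, 0 rose, 2 fell and 16 missed the threshold, a share of falls (11.1%) near the 11.3% of all genes. These were the profilin gene pfn1, with -1.31 (SE 0.24, limma adjusted p = 0.0143), and the cortactin-binding gene cttnbp2, with -1.56 (SE 0.18, limma adjusted p = 0.00293). Here the count was 0 without wild-type pool 1, where pfn1 had adjusted p = 0.0547, and 8 without wild-type pool 2. With either left out, cttnbp2 was below the filter and had no call. In the main fit cttnbp2 passed the filter through the wild-type arrays alone, so for it a rise could hardly be called. With transgenic pool 1 at its bound, its difference was -1.48.

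Cytoplasmic actin itself did not pass the test. The genes actb1 and actb2, named after their values were seen, had differences of -0.10 (SE 0.13) and -0.14 (SE 0.08), at limma adjusted p = 0.645 and 0.253. Of 6 actin isoform genes, 1 rose and 5 did not pass, where 11.2% of all genes rose and 11.3% fell. That one was the smooth muscle actin gene acta2, shared with the smooth muscle list, with 10.79, 10.68 and 10.39 in transgenic pools 1, 2 and 3, against 8.89 and 7.70 in wild-type pools 1 and 2 (difference 2.32, SE 0.36, limma adjusted p = 0.00845). The acta2 difference was 2.91 with wild-type pool 1 left out, and omitting wild-type pool 2 gave 1.73. Of the 6 isoform genes, 3 are also on the striated muscle list. Among those that did not pass, actc1b, named after its value was seen, had -2.14 (SE 0.74, limma adjusted p = 0.0919).

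The 5 family genes lie on 5 chromosomes in the RefSeq gene table, so none neighbours another. Of the 50 protein-coding genes that flank them, 5 on each side, 14 were measured after the filter, none of them beside gsnb. Of the 14, 1 was called higher and 3 lower, or 28.6%, against 22.5% of all genes in either direction. The gene next to vil1 on one side, zgc:66484, rose by 2.27 (SE 0.30, limma adjusted p = 0.005), while agr1, of the secretory protein disulfide isomerase family and 4 genes away on the other side, fell by 1.12 (SE 0.16, limma adjusted p = 0.00647). The phosphatase gene ctdspla, next to vill, fell by 1.81 (SE 0.18, limma adjusted p = 0.00177), in the direction of vill. The ribosomal protein gene rpl5a, near scinlb, fell by 0.49 (SE 0.09, limma adjusted p = 0.0146). Neither of the 2 measured genes beside scinla passed.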

How the data were processed

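RNA of 5 pools was read on arrays of Affymetrix type, labelled per the labels' protocols as biotinylated cRNA made by in vitro transcription. The authors deposited log2 expression, with each array giving every probe set a single value. The submitters' processing notes name MAS5. Not given in the sources used here: its scaling target and the log step. The log2 base was inferred from the values, so the folds depend on it. Every array had a mean of 4.89, and 62.4% to 72% of probe sets lay above the background bound. The number of arrays limits the precision. No columns of other samples were present.

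The 115 control probe sets were left out of the tests. Of 15502 others, 10795 had 1 symbol, 135 several and 4572 none; symbols were updated by Entrez identifier with RefSeq's genes on the assembly GRCz12tu, and the family held the same 6 probe sets before and after. A probe set was kept where 2 or more arrays read it at or above their own 40th percentile (10335). Groups were compared with limma 3.58.1 in R 4.3.3, through lmFit and a trended eBayes without covariates, two-sided, adjusted by Benjamini-Hochberg over all kept probe sets. The script was tested on simulated data. A gene was represented by its kept probe set with the highest mean, and list members of the family were left out. A synonym that pointed twf2a to another gene was not used.

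The members and the 16 lists were chosen with earlier results of these data known. Named were all members and gelsolin-domain relatives, up to 4 genes per direction of each of the 6 lists on actin and the brush border with the largest change past the threshold, the 3 genes nearest to each member, and a few defining markers. A gene whose dimmer group did not exceed the bound on any array has its fold given as a minimum, from the brighter group's mean and the dimmer group's bound. No sequences were used here.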

Additional observations from a re-analysis of the deposited data

How the results depend on the processing

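Quantile normalization, median centring, no filter, a 60th percentile filter, eBayes with no trend or a robust one, a block for replicate number, and each pool left out in turn kept the direction of all 6 family differences, and none moved by as much as 1 residual SD. The wild-type and transgenic pools shared only a replicate number: deviations correlated across probe sets at -0.254 for pools numbered 1 and -0.125 for those numbered 2. Because no wild-type pool shared the number of transgenic pool 3, the block gave the same differences as leaving that pool out. For them it is no separate check, and it left little spread between pools for its p-values. With the replicate block, 4 family probe sets were called lower and 1 higher, scinlb missing the threshold, and 1 actin isoform gene was called lower. After quantile normalization 8 genes fell in the severing and capping list and 6 in the monomer binding and nucleation list, which had 4 with the 60th percentile filter. With pools left out in turn, lower calls ranged from 2 to 5 for the family, 0 to 1 for the gelsolin-domain relatives, 2 to 6 for brush border structure, 0 to 1 for brush border enzymes, 2 to 8 for severing and capping, 0 to 8 for monomer binding and nucleation and 0 to 1 for actin isoforms. Over all probe sets they ranged from 367 to 1445, and higher calls from 649 to 1164. The svila probe set at 0.03 had -0.07 after quantile normalization, -0.06 with the replicate block, and -0.10 to 0.16 with pools left out. The cause of these shifts was not tested. The replicate block also ended the calls of baiap2l1a, limk2, capza1a and the lower svila probe set, at limma adjusted p = 0.218, 0.0864, 0.106 and 0.188, and without the filter baiap2l1a had 0.0651. Signal over background limits vil1 in wild-type pools and vill and probe set B of gsnb in transgenic pools, where values lay below or not far above the bound. In transgenic pool 1 it also limits scinla, at 3.96, and probe set A of gsnb, at 4.28, against a bound of 3.95.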
